A study of Rattus norvegicus with 40 samples.

Results

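The lung and the intestine of Wistar rat embryos were compared at gestational day 16 (E16), before either organ has taken up its mature function. The comparison is between 10 lung and 10 intestine arrays, 20 of the study's 40 Affymetrix rat expression arrays, over the 20826 of 31099 probe sets that carry a single gene symbol (each probe set combines several short probes against one transcript). The other 20 arrays hold the same tissues at gestational day 20 (E20), again 10 of each, and entered the model only through the shared estimate of spread and the choice of each gene's brightest probe set. A fit to the 20 E16 arrays alone gave the same counts of called genes. The differences are the same in both fits by construction, so equal counts do not show that the E20 arrays are without effect. All groups were untreated embryos of one strain, delivered by caesarean section from timed matings, and the tissue was the whole organ dissected under a microscope. Trizol extracts were labelled with biotin in a single cycle, starting from 2 µg of RNA for lung and 1 µg for intestine, so tissue and the amount of labelled RNA cannot be told apart. The labels mention frozen tissue of several littermates, and the design text speaks of 10 embryos per age. It is not settled by these sources if an array stands for 1 embryo or a pool, so the p-values cover no more than the spread among these arrays.

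Both organs form from the endodermal gut tube and the splanchnic mesoderm around it. The lung buds from the ventral foregut, where the endoderm switches on Nkx2-1 and the mesenchyme switches on Tbx4 and Tbx5, and signals between the layers (WNT, FGF, BMP and hedgehog) drive branching. The intestine lies further back, keeps Cdx2 and Hnf4a in its endoderm, expresses posterior Hox genes in its wall, and is colonised by neural crest cells that build the enteric nervous system.

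Defining markers matched the labels in full for lung and in part for intestine. On every E16 lung array the lung markers Nkx2-1, Sftpc, Tbx4, Tbx5 and Wnt2 lay above every E16 intestine array. Of the 6 intestine markers, Cdx2, Hnf4a, Nkx2-3 and Cdh17 lay higher on every intestine array, whereas Cdx1 differed by -0.03 and Vil1, the brush-border protein villin, by -0.64 on the log2 scale, with overlap. Array medians ran from 220 to 234 intensity units in lung and from 241 to 263.7 in intestine, without overlap. Each array's median correlation with the others of its group lay between 0.971 and 0.988. Transcripts of neighbouring organs stood out on 7 arrays. Each array was set against the median of its own tissue, so a level shared by most arrays of a tissue would not stand out. The mean level of a list of 18 cardiac muscle genes was 8.20, 10.15, 8.22 and 10.47 (log2) on lung replicates 2, 5, 7 and 9, against 7.13 to 7.50 on the other 6. A list of 18 pancreas genes was at 7.46, 7.73 and 7.54 on intestine replicates 6, 8 and 9, against 6.30 to 6.71 on the other 7, and a list of 19 liver genes reached 8.66 on intestine replicate 9. Named genes that lost their call or moved by over 1.5-fold without these arrays are given both ways. Xist alone was above the median of all values on 4 lung and 2 intestine arrays, the Y-linked Eif2s3y alone on 6 and 7, and both on 1 intestine array. Neither sex-linked transcript differed between the tissues by the test used here.

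Differences are given as lung minus intestine on the log2 scale, so that a negative value means a higher level in intestine. The standard error (SE) comes from a limma model with 10 arrays in each group. A gene was called different at a Benjamini-Hochberg adjusted p under 0.05 and a difference of at least 2-fold, and was represented by its brightest probe set, which gave 14217 genes. By this rule 730 genes (5.13%) differed, of which 303 (2.13%) were higher in lung and 427 (3.0%) were higher in intestine. The arrays of the tissues did not overlap for 648 of the 730 called genes, against 2740 (19.3%) of all genes. A log2 difference of 3 or more was reached by 21 genes on the lung side and 36 on the intestine side. The median difference over all genes was -0.11, and -0.01 after each array was centred on its median. In 178 of the 303 lung genes the intestine mean lay below the median of all log2 values (7.89), and in 273 of the 427 intestine genes the lung mean did. No detection calls were used, so for these the dimmer tissue may be at the array's background and the fold may be understated.

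The 12 largest differences on the lung side included the mesenchymal regulators Tbx5, Tbx4 and Meox2 and the distal epithelial genes Sftpc and Lamp3. Tbx5, a T-box transcription factor needed for lung bud outgrowth, ran from 11.20 to 11.50 (median 11.37) on the lung arrays and from 3.36 to 6.0 (median 3.84) on the intestine arrays. The tissues were separate on every array, and the difference was 7.15 (SE 0.20, 142-fold, limma adjusted p = 5.04e-29). Its T-box relative Tbx4 ran from 10.91 to 11.61 in lung and from 4.43 to 6.37 in intestine, a 73.0-fold difference. Phex, a membrane endopeptidase known from phosphate balance in bone, was 57.9-fold higher in lung, with lung values between 10.53 and 10.84 and intestine values between 3.95 and 6.15. Sftpc, the surfactant protein C gene of distal lung epithelium, had a lung median of 11.26 (10.46 to 11.69) and an intestine median of 6.28 (6.03 to 6.74), and differed by 4.87 (SE 0.11, limma adjusted p = 1.15e-32). No array of one tissue reached the range of the other for these genes. Lamp3, a lysosomal membrane protein of surfactant-storing lamellar bodies, was 23.4-fold higher, and Mia, a small secreted protein, was 23.3-fold higher. The BMP ligand Bmp5 stood 20.5-fold and the water channel Aqp4 20.0-fold higher in lung, although dimmer probe sets of Aqp4 gave log2 differences of only 0.10 and 0.71. Transcription factors among the largest differences were Meox2 of the mesoderm (17.3-fold), Foxa2 of foregut endoderm (16.6-fold) and Irx1 (15.2-fold; its dimmer probe set gave a log2 difference of -0.28).

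Myl7, the atrial myosin light chain, was the one heart gene among the 12 largest lung differences, and its lung arrays were unlike each other. Its lung values were 11.13, 13.29, 10.88 and 13.61 on replicates 2, 5, 7 and 9 and 6.90 to 8.43 on the other 6, against 5.05 to 6.47 in intestine. The difference was 3.92 (SE 0.57) over all arrays and 2.08 (SE 0.25) without the 7 arrays that stood apart.

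On the intestine side the 12 largest differences included 4 homeobox genes, 3 of them Hox genes, and a BMP antagonist. Mab21l2, a protein of eye and body wall development, ran from 11.77 to 12.34 (median 12.02) in intestine and from 6.36 to 6.84 (median 6.58) in lung. That is a separation on every array and a difference of -5.44 (SE 0.072, 43.5-fold, limma adjusted p = 1.41e-40). Its relative Mab21l1 differed 24.8-fold. Grem1, a secreted antagonist of BMP ligands, had an intestine median of 9.92 (9.20 to 10.57) and a lung median of 4.44 (3.90 to 5.09), a 42.4-fold difference. Aldh1a1, an enzyme that makes retinoic acid, ran from 12.63 to 13.26 in intestine and from 7.91 to 8.39 in lung, a 28.9-fold difference. These intestine values were closely grouped, whereas S100g, the vitamin D-dependent calcium-binding protein calbindin D9k, spread from 8.65 to 11.05 in intestine and stayed between 4.47 and 5.36 in lung (24.0-fold). The homeobox genes in this group were Hoxd10 (26.6-fold), Hoxd1 (25.6-fold), Hoxa10 (18.7-fold) and Dlx1 (18.1-fold). The remaining genes were Lum, the collagen-binding proteoglycan lumican (23.4-fold), Pcp4, a calmodulin-binding peptide of neurons and muscle (21.0-fold), and Elmod1 (18.8-fold). Lung arrays of Lum ranged from 5.72 to 8.42, the widest lung range of these 12 genes.

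**Figure D1:**
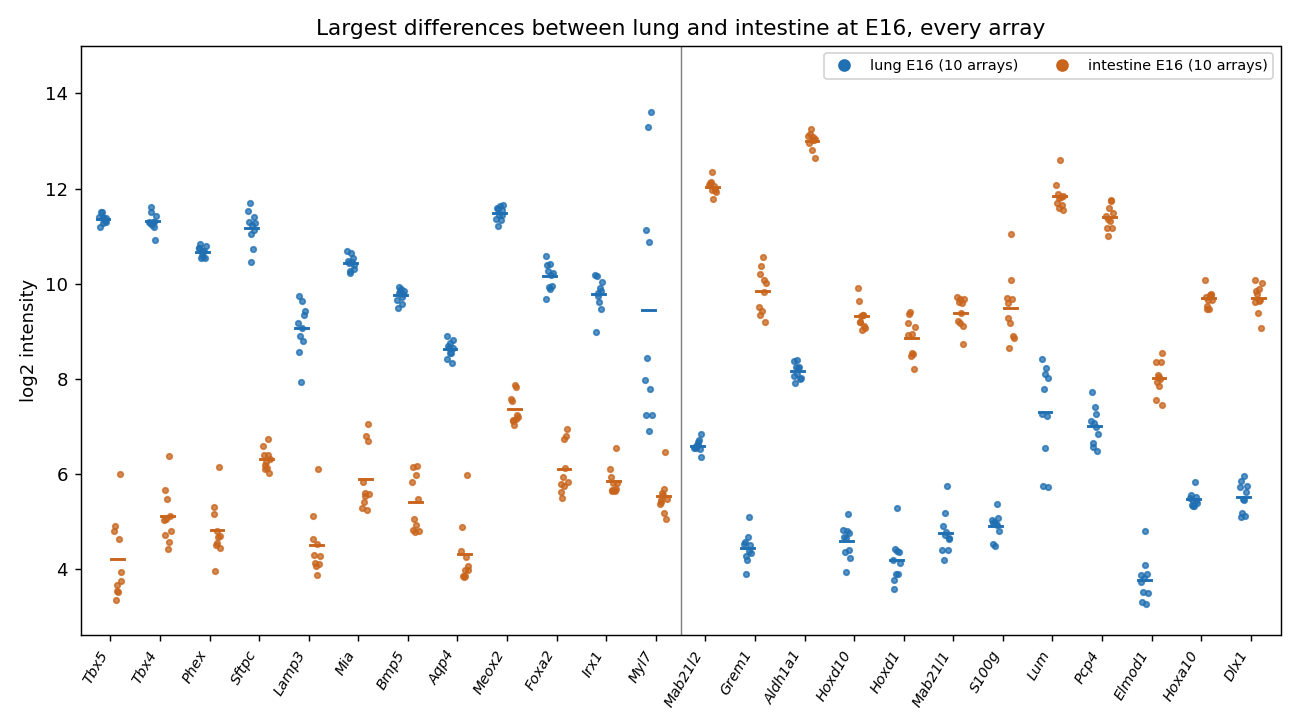
Log2 intensity on each of the 10 lung (blue) and 10 intestine (orange) arrays of E16 for the 12 largest differences in each direction, with a bar at each group mean. The groups do not overlap for any of the 24 genes by the rule that chose them, and the lung arrays of Myl7 are spread the most, between 6.90 and 13.61.

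Transcription factors of lung epithelium were the clearest regulator group on the lung side of the endoderm. Of the 22 measured, 8 were higher in lung and 0 in intestine, with a median of 0.12 beside -0.11 for all genes. Nkx2-1, the factor that defines lung endoderm, ran from 9.03 to 10.55 (median 9.74) in lung and from 6.36 to 7.23 (median 6.67) in intestine, a difference of 3.03 (SE 0.14, limma adjusted p = 3.42e-21). The Iroquois factors Irx1 (3.93) and Irx2 (3.86) and the forkhead factor Foxa2 (4.05) differed by more, and Etv5, a target of FGF signalling at branching tips, by 2.92. The groups were separate on every array for each of these. Sox2, which marks foregut and airway endoderm, went the other way on every array, between 8.73 and 9.35 in lung and between 9.49 and 10.12 in intestine, but its difference of -0.63 (SE 0.091) missed the fold threshold.

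In lung mesenchyme the list held 17 measured regulators, of which 5 were higher in lung and 0 in intestine, with a median of 0.34. Wnt2, the ligand that signals from lung mesenchyme to endoderm, ran from 9.92 to 10.62 in lung and from 6.55 to 6.92 in intestine, without overlap, a difference of 3.52 (SE 0.086, limma adjusted p = 5.51e-31). Its other probe set gave 3.90. Tbx5, Tbx4 and Meox2 are described above, and the fifth gene was Zeb2 (1.08). For several genes known for lung mesenchyme the levels in lung and intestine lay close. Foxf1, the hedgehog-dependent forkhead factor of splanchnic mesoderm, ran from 10.44 to 10.89 in lung and from 10.83 to 11.21 in intestine (difference -0.28, SE 0.080). Fgf10, the ligand that draws out lung buds, ran from 7.32 to 7.68 in lung and from 6.89 to 7.38 in intestine (0.33, SE 0.068), and Hoxa5 differed by 0.62 (SE 0.11). The arrays of the tissues overlapped for these genes and none of the differences reached 2-fold. Fgf10 lay below the median of all log2 values (7.89) on every E16 array. Without detection calls, its presence in either tissue is not settled.

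Intestinal endoderm factors divided between the tissues. Of 14 measured, 2 were higher in intestine and 2 in lung, beside 3.0% and 2.13% of all genes, with a median of -0.15. Hnf4a, a nuclear receptor of absorptive epithelium, ran from 6.97 to 8.71 (median 7.96) in intestine and from 5.40 to 6.33 (median 5.82) in lung, a difference of -2.12 (SE 0.14, limma adjusted p = 3.09e-16), but its other probe sets gave only -0.55 and -0.44. Cdx2, the caudal homeobox factor that specifies intestine, ran from 7.20 to 8.42 in intestine and from 6.36 to 6.88 in lung, a difference of -1.20 (SE 0.12) that became -0.90 on log2(intensity + 50) and was not called there. Its relative Cdx1 lay between 6.79 and 7.34 in both tissues, and its difference of -0.03 (SE 0.068) turned to 0.16 after quantile normalization and to 0.065 after centring. These Cdx1 values were all below the median of all log2 values (7.89), so its presence in either tissue is not settled. The GATA factors of the list went toward lung. Gata5 ran from 9.10 to 9.82 in lung and from 6.82 to 7.45 in intestine (2.21, SE 0.089). Gata4 gave 1.16 (SE 0.13) with its brightest probe set and -0.29 with the other.

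Gut mesenchyme regulators were higher in intestine in 7 of 13 measured genes and higher in lung in 0, with a median of -1.18. Hand2, a factor of enteric neurons and gut mesenchyme, ran from 11.18 to 11.76 (median 11.36) in intestine and from 7.02 to 8.69 (median 7.40) in lung, a difference of -3.85 (SE 0.15, limma adjusted p = 1.54e-23). Nkx2-3, a homeobox factor of the midgut and hindgut wall, ran from 7.07 to 7.85 in intestine and from 5.91 to 6.35 in lung (-1.46, SE 0.082). Osr2, an odd-skipped zinc finger factor, differed by -2.0 (SE 0.12). Each of these was separate on every array. Barx1, which patterns stomach mesenchyme, ran from 6.56 to 7.02 in intestine and from 6.22 to 6.61 in lung and was not called (-0.28, SE 0.072). Its E16 values also lay below the median of all log2 values (7.89), so its presence in either tissue is not settled.

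Hox genes encode position along the body axis, with low-numbered groups active towards the head and high-numbered groups towards the tail. Of 22 measured, 8 were higher in intestine and 0 in lung, against 3.0% and 2.13% of all genes, and the median was -0.71. Hoxd10 ran from 9.02 to 9.92 (median 9.26) in intestine and from 3.93 to 5.16 (median 4.67) in lung (-4.74, SE 0.18, limma adjusted p = 9.87e-25). Hoxa10 ran from 9.47 to 10.09 in intestine and from 5.32 to 5.83 in lung, and Hoxa9 from 7.57 to 8.14 and from 3.49 to 5.25. Lung stayed below intestine on every array for these posterior genes. The pattern was not one of group number alone: Hoxd1, the most anterior member of its cluster, ran from 8.21 to 9.41 in intestine and from 3.58 to 5.27 in lung (-4.68, SE 0.16). Among groups 1 to 7, 3 of 12 genes were higher in intestine (median -0.19), and among groups 8 to 13, 5 of 10 (median -1.57). By cluster, the counts were 2 of 5 for HoxA, 0 of 6 for HoxB, 2 of 4 for HoxC and 4 of 7 for HoxD. HoxB differences stayed between -0.30 and 0.59.

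**Figure D2:**
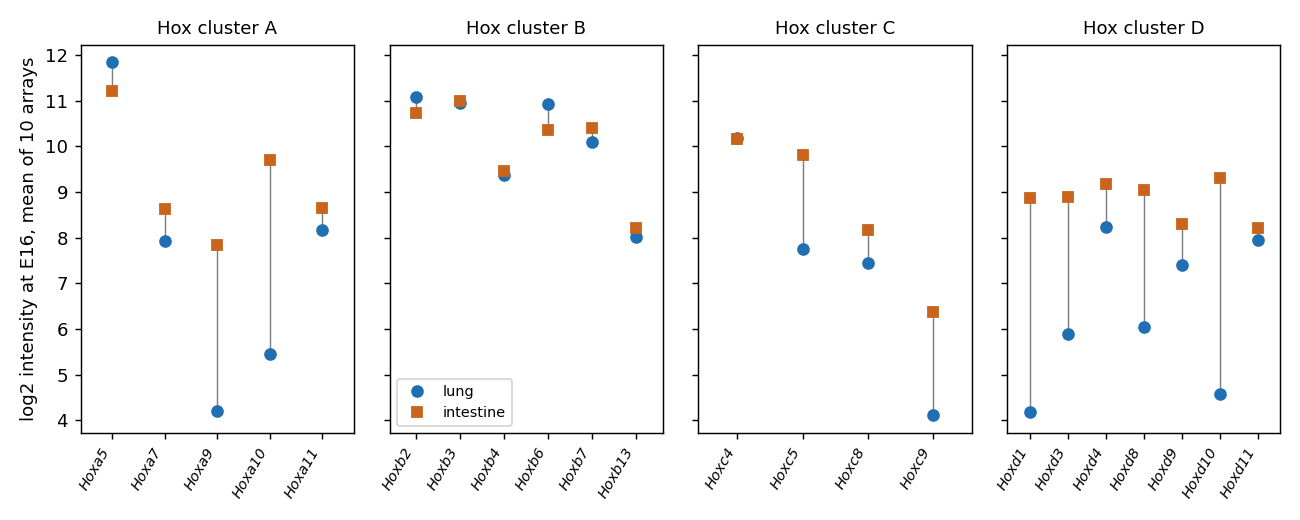
Mean log2 intensity of the measured Hox genes in E16 lung (circles) and intestine (squares), by cluster and ordered by group number, each the mean of 10 arrays. The pairs lie close in cluster B, where the differences run from -0.30 to 0.59, and furthest apart for Hoxd10, Hoxd1 and Hoxa10. Levels of different genes are read by different probes and are not comparable.

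WNT genes moved both ways, with 6 of 36 measured members higher in lung and 6 higher in intestine (median -0.12). Beside Wnt2, lung had more of the transcription factor Lef1, which ran from 10.16 to 10.70 in lung and from 6.66 to 7.43 in intestine (3.32, SE 0.086), and of the secreted inhibitors Sfrp2 (2.14, SE 0.15) and Wif1 (1.98, SE 0.13). Intestine had more of the inhibitor Dkk2, which ran from 7.03 to 8.42 in intestine and from 4.73 to 5.71 in lung (-2.73, SE 0.12). The ligands Wnt4 (-1.37, SE 0.17) and Wnt5b (-1.16, SE 0.065) and the inhibitors Sfrp5 (-1.30, SE 0.16) and Sfrp1 (-1.12, SE 0.11) were also higher in intestine. Pairs of 1 family were picked by the rule that 1 member was called higher in each tissue. The pairs were Wnt2 with Wnt4 and Wnt5b, Sfrp2 with Sfrp1 and Sfrp5, and Nkx2-1 with Nkx2-3.

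In the BMP and TGF-beta list 3 of 37 measured genes were higher in lung and 6 in intestine (median -0.20). The ligand Bmp5 ran from 9.50 to 9.94 in lung and from 4.77 to 6.17 in intestine (4.36, SE 0.14), and the receptor decoy Bambi (1.67, SE 0.083) and the BMP-binding protein Bmper (1.57, SE 0.12) were higher in lung as well. Grem1 apart, intestine had more follistatin (Fst), an activin-binding protein, at 10.09 to 11.23 against 8.0 to 8.58 in lung (-2.46, SE 0.13), and more of the ligand Gdf10 (-2.09, SE 0.16). Antagonists therefore stood among the higher genes of both tissues. Of 22 FGF genes 2 were higher in lung and 3 in intestine, beside 2.13% and 3.0% of all genes. The receptor Fgfr3 ran from 9.85 to 10.19 in lung and from 7.10 to 7.84 in intestine (2.52, SE 0.078), while the ligands Fgf9 (-1.20, SE 0.091) and Fgf18 (-1.17, SE 0.11) and the intracellular factor Fgf13 (-2.73, SE 0.17) were higher in intestine.

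In the hedgehog list limma's test with the fold minimum called 0 of 12 measured genes, and at an unadjusted p under 0.05 alone 3 were higher in lung and 5 in intestine. By adjusted p alone the counts were also 3 and 5, beside 3358 and 5688 of all 14217 genes. Shh, the ligand made by both epithelia, ran from 7.19 to 7.35 in lung and from 7.07 to 7.56 in intestine (-0.03, SE 0.065), a sign that turned with quantile normalization (0.15) and centring (0.069). Every E16 value of Shh lay below the median of all log2 values (7.89). Without detection calls, its small difference does not settle if either tissue expressed it. Ihh, the intestinal hedgehog ligand, was separate on every array, from 9.26 to 9.53 in intestine and from 8.43 to 8.69 in lung, at a difference below 2-fold (-0.84, SE 0.092, limma adjusted p = 3.76e-10). The retinoid list had 5 of 21 members higher in intestine and 1 in lung (median -0.25), beside 3.0% and 2.13% of all genes. After Aldh1a1, the intestine genes with the largest differences were the binding protein Crabp1 (-1.56, SE 0.091), the receptor Rarb (-1.53, SE 0.11) and the degrading enzyme Cyp26a1 (-1.21, SE 0.099). Rarb ran from 10.00 to 10.40 in intestine and from 8.53 to 9.07 in lung. Lrat, which esterifies retinol for storage, was the lung gene (1.20, SE 0.12).

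**Figure D3:**
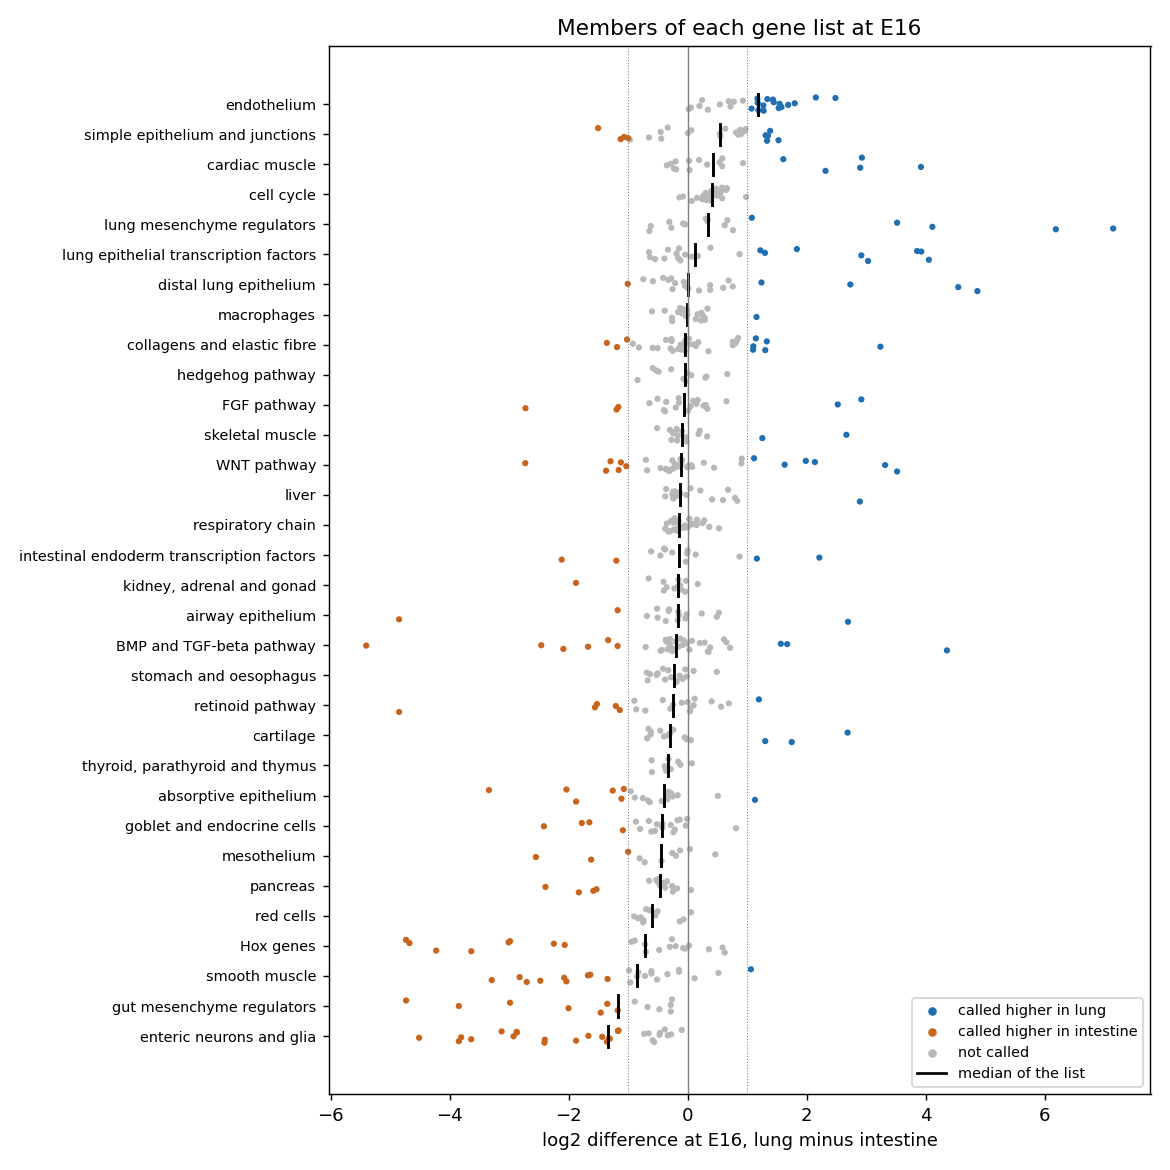
Log2 difference at E16 (lung minus intestine) of the measured members of 32 gene lists, coloured by whether the gene was called, with a black bar at the median of each list and dotted lines at 2-fold. Endothelium has the highest median (1.18) and enteric neurons and glia the lowest (-1.34).

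Genes of the differentiated distal lung for the most part differed by less than 2-fold at E16. Of 21 measured, 4 were higher in lung and 1 in intestine at E16 (median 0.01), against 18 and 0 at E20 (median 3.15), when 7.91% of all genes were higher in lung. At an adjusted p under 0.05 without the fold minimum, 9 were higher in lung and 7 in intestine at E16, beside 3358 and 5688 of all 14217 genes. The list's mean level ran from 7.83 to 8.13 on lung arrays and from 7.26 to 7.76 on intestine arrays, without overlap. Sftpc, Lamp3, the tight junction protein Cldn18 and the mucin Muc1 were the E16 genes. Cldn18 ran from 8.50 to 9.42 in lung and from 5.97 to 6.82 in intestine (2.73, SE 0.10), and its other probe sets gave 1.61 and 2.29. Lgi3, counted as higher in intestine, was called through its brightest probe set (-1.01, and -0.99 and not called without the 7 arrays that stood apart) while the others gave 1.43 and 0.65. Sftpb and Sftpa1, which also encode surfactant proteins and were picked out after their values were seen, differed by 0.19 (SE 0.11) and 0.38 (SE 0.11) at E16 and by 7.23 and 7.39 at E20. Airway epithelium had 1 of 17 genes higher in lung and 2 in intestine, beside 2.13% and 3.0% of all genes. The secretory club cell protein Scgb1a1 ran from 8.67 to 9.95 in lung and from 5.97 to 6.81 in intestine (2.69, SE 0.11).

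Genes of absorptive intestinal epithelium showed a small shift at E16. Of 24 measured, 6 were higher in intestine and 1 in lung (median -0.39), against 24 and 0 at E20 (median -5.86), when 8.21% of all genes were higher in intestine. The list's mean level on an array ran from 6.16 to 6.55 in E16 lung, from 6.67 to 7.35 in E16 intestine and from 11.49 to 12.09 in E20 intestine. Lgals4, a galectin of the brush border, ran from 7.40 to 10.45 (median 9.50) in intestine and from 5.54 to 6.28 (median 5.85) in lung (-3.34, SE 0.21, limma adjusted p = 5.24e-17). Cdh17, the intestinal cadherin, ran from 6.65 to 9.16 in intestine and from 5.48 to 6.04 in lung (-1.88, SE 0.16). Intestine arrays of these genes were spread over several-fold while lung arrays stayed low and close. Apoa1, an apolipoprotein of liver and intestine, was the member higher in lung (1.13, SE 0.34), with overlapping arrays (6.18 to 8.42 in lung, 5.77 to 9.45 in intestine). Albumin was also called higher in lung, as given below. The liver list's mean level ran from 6.85 to 7.72 (median 7.42) on lung arrays. On intestine arrays it ran from 6.80 to 8.66 (median 7.06), with overlap. The median difference of the list's genes was -0.12. The part of liver RNA in the Apoa1 difference was not tested. Of 21 goblet and endocrine genes 4 were higher in intestine and 0 in lung, namely the granule protein Chgb (-2.42, SE 0.14), the peptide hormones Sst (-1.78, SE 0.18) and Nts (-1.65, SE 0.10) and the secretory protein Agr2. Agr2 overlapped between tissues, and its difference was -1.09 (SE 0.26) with all arrays and -0.67 without the 7 arrays that stood apart, where it was no longer called.

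The window of 250 bases before the gene start was read for exact letters of binding motifs known for factors described above, in the RefSeq table of rat promoters (GRCr8), after the results were seen. An HNF4 motif, CAAAGTCCA on either strand, was present in 0.331% of 27457 promoters, in 2 of the 314 matched promoters of genes higher in intestine and in 0 of 232 matched promoters of genes higher in lung. The windows that hold it belong to Lgals4 and to Cps1, the mitochondrial carbamoyl phosphate synthetase. They are printed because they were the matches among genes higher in intestine at E16, so the motif itself chose them. Cps1 ran from 7.66 to 10.57 in intestine and from 5.38 to 5.97 in lung (-3.78, SE 0.31). Capitals mark the HNF4 motif and, in Lgals4, also a CDX motif, TTTATG; the strand is + for both, at chr9:76063613-76063862 for Cps1 and chr1:93252035-93252284 for Lgals4.
Cps1: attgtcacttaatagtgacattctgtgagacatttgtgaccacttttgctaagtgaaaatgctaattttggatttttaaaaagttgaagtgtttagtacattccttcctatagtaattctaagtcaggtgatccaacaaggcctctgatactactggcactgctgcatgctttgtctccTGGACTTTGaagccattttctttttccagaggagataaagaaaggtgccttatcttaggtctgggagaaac
Lgals4: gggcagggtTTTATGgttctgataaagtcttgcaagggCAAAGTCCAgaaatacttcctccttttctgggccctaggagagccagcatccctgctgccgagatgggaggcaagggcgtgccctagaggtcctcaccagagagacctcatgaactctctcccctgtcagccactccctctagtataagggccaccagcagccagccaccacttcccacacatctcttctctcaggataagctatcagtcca
The HNF4 letters begin 71 bases before the start of Cps1 and 212 bases before that of Lgals4. The shorter CDX motif was in 11.2% of all promoters, 6.57% of those of measured genes, 10.2% of those higher in intestine and 6.03% of those higher in lung. An NKX2-1 motif, CTCAAG, was in 13.3%, 12.1%, 9.55% and 10.8%. These are matches of letters, not measured sites.

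Genes shared by simple epithelia and their junctions were called in both directions at E16. Of 25 measured, 5 were higher in lung and 4 in intestine, with a median of 0.55, and the counts were 9 in lung and 2 in intestine without the 7 arrays that stood apart. With the probe sets of each gene averaged, 4 were higher in lung and 5 in intestine, and the median was 0.19. The adhesion molecule Epcam ran from 10.14 to 10.96 in lung and from 7.42 to 10.01 in intestine (1.53, SE 0.18, limma adjusted p = 1.59e-09). Cdh1, which encodes E-cadherin, ran from 9.24 to 10.34 in lung and from 7.87 to 9.37 in intestine (1.33, SE 0.14), but its dim second probe set gave -0.50 and the mean of both 0.42, which was not called. Claudin 4 (Cldn4, 1.35, SE 0.17) and the protease inhibitor Spint1 (1.39, SE 0.098) also were higher in lung. The desmosomal Dsg2 (-1.51, SE 0.093) and the keratins Krt8 (-1.13, SE 0.085) and Krt19 (-1.0, SE 0.095) were higher in intestine, both keratins falling just short of 2-fold without the 7 arrays (-0.99 and -0.92). In whole organs, fewer cells of a type and less RNA per cell cannot be told apart.

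The muscle wall of the gut was already marked. Of 23 smooth muscle genes, 9 were higher in intestine and 1 in lung (median -0.85), and 16 had every intestine array above every lung array. Over all genes the arrays did not overlap, in either direction, for 19.3%. Actg2, the enteric smooth muscle actin, ran from 12.52 to 13.60 in intestine and from 9.88 to 10.52 in lung (-2.71, SE 0.12, limma adjusted p = 1.57e-22). Cnn1, which encodes calponin, ran from 11.81 to 12.35 in intestine and from 8.36 to 9.22 in lung (-3.29, SE 0.11). The actin-binding Tagln (-2.48, SE 0.11) and the actin-bundling Synpo2 (-2.83, SE 0.11) followed, and the groups were separate for each of these. Rgs5, a pericyte gene, was the member higher in lung (1.06, SE 0.13), with overlap.

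Enteric neuron and glia genes formed the list with the lowest median, -1.34, and 18 of 28 were higher in intestine and 0 in lung. Tubb3, the neuronal tubulin, ran from 10.23 to 11.44 (median 10.91) in intestine and from 5.59 to 7.74 (median 6.15) in lung (-4.52, SE 0.20, limma adjusted p = 8.06e-22). That probe set carries a shared-probe suffix, which barred probe sets from the 12 largest differences, and may also read other transcripts. The dimmer probe set of Tubb3, without that suffix, gave -0.39 and was not called. Prph, the intermediate filament of peripheral neurons, ran from 10.81 to 11.31 in intestine and from 6.87 to 7.86 in lung (-3.81, SE 0.13), and the growth-associated Stmn2 from 11.46 to 11.87 and from 7.41 to 8.90 (-3.64, SE 0.20). Intestine arrays were close together for these genes, and lung arrays were more spread. The receptor Ret, which guides crest cells into the gut, depended on the probe set. Its brightest one ran from 9.35 to 9.91 in intestine and from 8.91 to 9.14 in lung and was not called (-0.56, SE 0.074), whereas the other probe sets gave -3.98 and -3.25, both called, and the mean of all gave -2.60. At E20 the list's counts were 14 higher in intestine and 0 in lung.

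Endothelial genes had the highest median of the lists, 1.18, and 16 of 26 were higher in lung and 0 in intestine. The apelin receptor Aplnr ran from 8.89 to 9.83 (median 9.42) in lung and from 6.01 to 7.83 (median 7.0) in intestine (2.48, SE 0.19, limma adjusted p = 1.34e-14), while a dimmer probe set of Aplnr gave -0.26. Its ligand Apln ran from 9.42 to 9.91 in lung and from 7.24 to 7.84 in intestine (2.15, SE 0.099). Pecam1, a surface protein of all endothelium, ran from 9.18 to 9.59 in lung and from 7.66 to 8.70 in intestine (1.27, SE 0.11). The fenestral protein Plvap differed by 1.69 (SE 0.12) and the transcription factor Sox17 by 1.80 (SE 0.15), although the dimmer probe sets of Sox17 gave 0.19 and -0.36. The list's mean level ran from 9.26 to 9.71 on lung arrays and from 8.21 to 8.93 on intestine arrays, without overlap. At E20 21 members were higher in lung and 1 in intestine. Of 20 macrophage genes, only the mannose receptor Mrc1 was higher in lung (1.16, SE 0.15) and none in intestine, beside 2.13% and 3.0% of all genes.

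Matrix genes were called in both directions at this age. Of 36 collagen and elastic fibre genes 6 were higher in lung and 3 in intestine, beside 2.13% and 3.0% of all genes. The differences ran from -1.36 to 3.24, with a median of -0.04 that turned to 0.05 after centring. At E20 23 were higher in lung and 1 in intestine (median 1.18), beside 7.91% and 8.21% of all genes. The transmembrane collagen Col13a1 ran from 9.50 to 10.02 in lung and from 6.05 to 7.03 in intestine (3.24, SE 0.11). The basement membrane collagen Col4a1 (1.30, SE 0.14), the glycoprotein Tnc (1.15, SE 0.096) and the microfibril protein Mfap5 (1.33, SE 0.28) were higher in lung as well. The fibulin Efemp1 (-1.36, SE 0.14), the fibril-associated Col12a1 (-1.19, SE 0.14, but 0.01 and -0.09 with dimmer probe sets) and the TGF-beta-binding Ltbp1 (-1.02, SE 0.11) were higher in intestine. Of the mesothelium list, 3 of 11 genes were higher in intestine and 0 in lung, among them the zinc finger factors Bnc1, which ran from 10.02 to 10.61 in intestine and from 7.20 to 8.19 in lung (-2.55, SE 0.23), and Wt1 (-1.62, SE 0.17, and -0.58 with a dimmer probe set).

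Proliferation genes shifted together by less than 2-fold. In limma's test with the fold minimum 0 of 31 cell cycle genes were called, while 28 were higher in lung and 1 in intestine at an unadjusted p under 0.05, 29 of 31 differences were above 0 and the median was 0.40, beside -0.11 for all genes. Every lung array lay above every intestine array in 17 of the 31, while the arrays did not overlap, in either direction, for 19.3% of all genes. The list's mean level ran from 11.05 to 11.23 on lung arrays and from 10.67 to 10.82 on intestine arrays. Mki67, the marker of cycling cells, ran from 11.61 to 12.07 in lung and from 11.35 to 11.68 in intestine (0.34, SE 0.072, limma adjusted p = 0.000112). At E20 the median was -0.52. The 14 red cell genes had a median of -0.60 and the 29 respiratory chain genes one of -0.14, with 0 called by limma in either list. At an unadjusted p under 0.05 alone, 0 red cell genes were higher in lung and 11 in intestine, and 6 and 15 respiratory chain genes were. By adjusted p alone the counts were 0 and 11 for red cells and 6 and 14 for the respiratory chain, beside 3358 and 5688 of all genes. For red cells the arrays overlapped in list level, from 10.69 to 11.23 in lung and from 10.93 to 12.08 in intestine.

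Markers of organs next to the lung and the gut were present on some arrays, and their part in the other results was not tested beyond the values without those arrays. Of 18 cardiac muscle genes, 5 were higher in lung and 0 in intestine with all arrays (median 0.43), against 3 in lung and 1 in intestine without the 7 arrays (median -0.28). Myl4, an atrial light chain, was at 8.94, 12.44, 9.79 and 12.77 on lung replicates 2, 5, 7 and 9 and at 7.23 to 8.29 on the other 6, against 5.52 to 6.87 in intestine, and differed by 2.90 (SE 0.45) with them and 1.70 (SE 0.21) without. Myh6, the atrial myosin heavy chain, differed by 2.32 (SE 0.55) and, without them, by 0.63, which was not called, and its dimmer probe set gave 0.16 with all arrays. The natriuretic peptide gene Nppa (0.93, SE 0.52) and the troponin gene Tnnt2 (0.58, SE 0.38) were not called with all arrays and turned to -0.32 and -0.53 without them. Smpx, a small muscle protein, differed by 2.93 (SE 0.33) with them and by 2.18 without them and stayed called, as did Myl7 and Myl4.

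Of 18 pancreas genes, 4 were higher in intestine with all arrays and 1 without the 7 arrays. The amylase gene Amy2a3 was at 10.85, 10.92 and 11.53 on intestine replicates 6, 8 and 9 and at 4.33 to 6.93 on the other 7, against 4.17 to 5.35 in lung, and its difference went from -2.39 (SE 0.63) to -0.73 without them. The carboxypeptidase gene Cpa1 went from -1.83 to -0.99 and the chymotrypsinogen gene Ctrb1 from -1.59 to -0.41, and both lost their call, while the elastase gene Cela1 stayed called (-1.53 and -1.34). Of 19 liver genes 1 was higher in lung and 0 in intestine, with a median of -0.12 that was 0.06 after quantile normalization. Without the 7 arrays 2 were higher in lung and 0 in intestine (median 0.096). The gene called with all arrays was Alb, which encodes the main liver product albumin. Alb spread from 8.20 to 11.23 in lung and from 5.76 to 12.55 in intestine, with overlap (2.89, SE 0.87, and 3.35 without the 7 arrays). In cartilage genes, 3 of 15 were higher in lung. Cnmd, which encodes chondromodulin, ran from 9.27 to 9.77 in lung and from 5.95 to 7.95 in intestine (2.69, SE 0.25), Col9a1 differed by 1.30 (SE 0.14), and Col2a1 by 1.75 (SE 0.19) with its brightest probe set and by 0.03 and -0.14 with the others. Of the defining cartilage markers, Acan (-0.40, SE 0.10) and Matn1 (-0.33, SE 0.071) were not called. The lists of stomach and oesophagus (18 genes) and of thyroid, parathyroid and thymus (10 genes) had 0 calls with limma (1 and 0 genes higher in lung, 10 and 7 in intestine, at an unadjusted p under 0.05 alone), and that of kidney, adrenal and gonad had 1 of 13, the salt transporter gene Slc12a1 (-1.88, SE 0.15). By adjusted p alone, 1 stomach and oesophagus gene was higher in lung and 8 in intestine. For thyroid, parathyroid and thymus the counts were 0 and 7, beside 3358 and 5688 of all 14217 genes. Of 17 skeletal muscle genes 2 were higher in lung, Acta1 (2.67, SE 0.44, and 1.92 without the 7 arrays) and Tnnc2 (1.25, SE 0.26, and 1.21 without them), both with overlap.

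**Figure D4:**
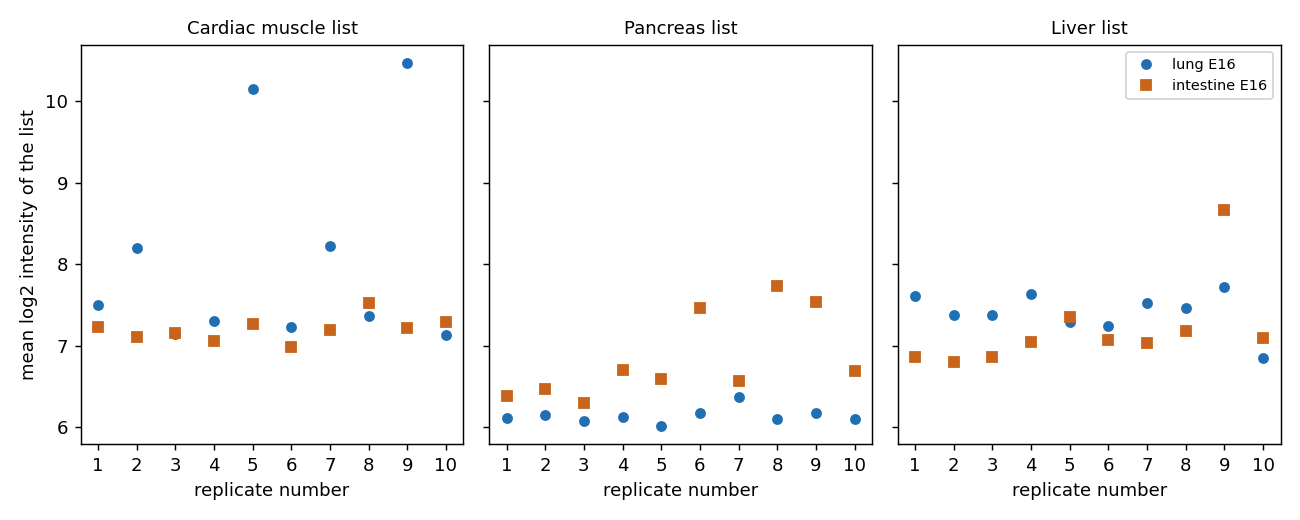
Mean log2 intensity of the cardiac muscle (18 genes), pancreas (18 genes) and liver (19 genes) lists on each E16 array by replicate number, lung as circles and intestine as squares. Lung replicates 5 and 9 stand highest for cardiac muscle (10.15 and 10.47), intestine replicates 6, 8 and 9 for pancreas, and intestine replicate 9 for liver (8.66).

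The means of the E20 arrays, which do not enter the E16 difference itself, showed how far the early differences lasted. At E20 2292 genes (16.1%) were called, 1125 (7.91%) higher in lung and 1167 (8.21%) higher in intestine, and the difference itself changed between the ages for 2502 genes (17.6%) at the same thresholds. The 389 genes called the same way at both ages were 53.3% of the E16 calls and 17.0% of the E20 calls. Of the 303 genes higher in lung at E16, 197 (65.0%) were higher in lung again, 89 were not called and 17 were higher in intestine. Of the 427 genes higher in intestine, 192 (45.0%) were so again, 193 were not called and 42 were higher in lung. The median difference of the lung genes was 1.43 at E16 and 1.65 at E20, and that of the intestine genes -1.46 and -0.87. The genes were chosen for a large value at E16 and not for one at E20.

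Tbx5, Tbx4, Phex and Meox2 kept their differences within 1 log2 unit (6.36, 6.53, 6.01 and 4.33 at E20). Sftpc rose from a lung mean of 11.18 to 14.83 while intestine stayed at 6.31 and 6.41, and the change of its difference was 3.55 (limma, called). For Cdx2 and Hnf4a the difference widened from -1.20 to -5.55 and from -2.12 to -6.16, with intestine means going from 7.81 to 12.12 and from 7.93 to 12.10. The differences of 7 of the 8 Hox genes called at E16 narrowed with a called change between the ages, Hoxd8 (-2.99 and -2.31) being the other. Hoxd10 went from -4.74 to -0.61 and Hoxa10 from -4.23 to -0.25, as intestine means went from 9.31 to 5.27 and from 9.69 to 5.69, while lung means were 4.58 and 4.66 for Hoxd10 and 5.46 and 5.44 for Hoxa10. The level that moved was that of intestine, and the E20 intestine arrays were not alike. On replicates 3 and 5 Hoxa10 was at 7.50 and 6.78 and Hoxd10 at 6.84 and 6.15. The other E20 intestine arrays lay from 4.86 to 5.67 for Hoxa10 and from 4.75 to 5.21 for Hoxd10.

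With the intensity and overlap criteria of the named genes met at both ages, 29 genes were called in opposite directions. The largest turn was that of Emp2, an epithelial membrane protein abundant in alveolar type I cells, which was higher in intestine at E16 (8.88 to 9.41 in lung, 10.61 to 11.24 in intestine, -1.80) and higher in lung at E20 (4.19). Maob, a mitochondrial monoamine oxidase, went from 2.70 to -2.18, and Pls1, the brush border protein plastin 1, from 2.40 to -2.46. Lung means of Maob were 9.69 and 10.28 and intestine means 7.0 and 12.46, and those of Pls1 were 9.61 and 9.75 in lung and 7.21 and 12.21 in intestine, so the intestine level was the one that moved more. The zinc finger homeobox factor Zfhx4 went from -2.94 to 1.64 and the cannabinoid receptor Cnr1 from -2.77 to 1.49. Of the junction genes, Epcam (-1.65 at E20), Cdh1 (-1.24) and Cldn4 (-1.28) were called higher in lung at E16 and higher in intestine at E20.

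**Figure D5:**
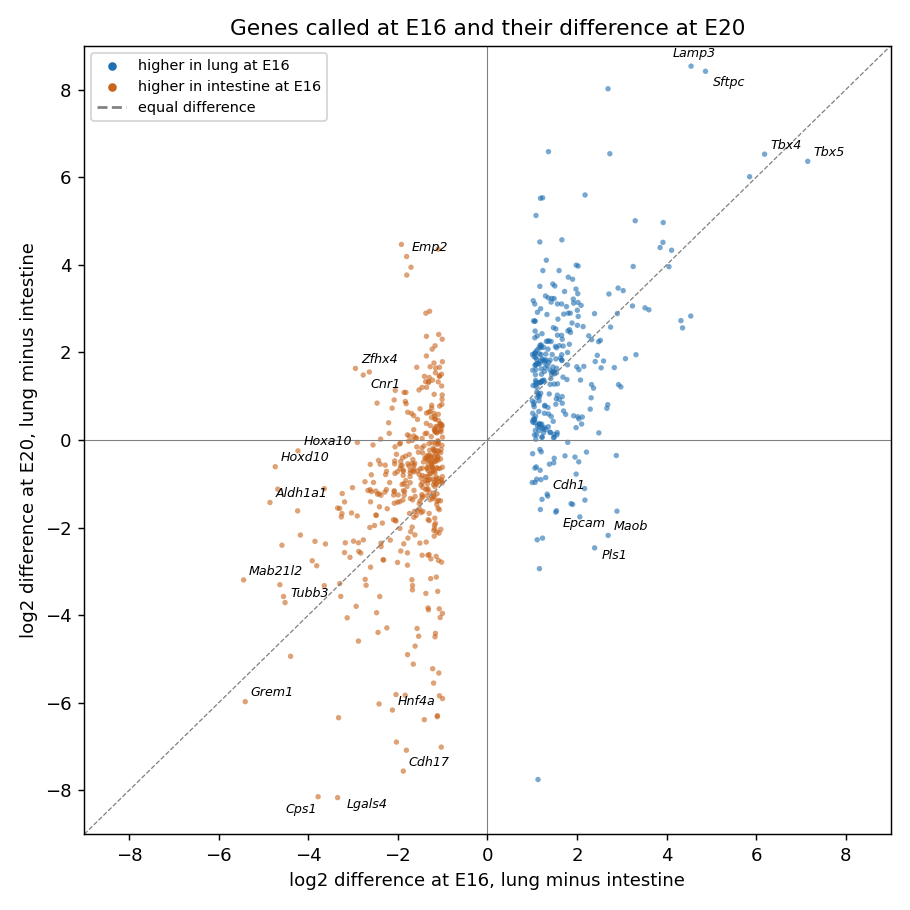
Log2 difference (lung minus intestine) at E20 against that at E16 for the 730 genes called at E16, with a dashed line where both are equal and a few genes labelled. Tbx5 and Tbx4 lie near the line, Sftpc and Lamp3 above it, Hoxd10 and Hoxa10 near 0 at E20, and Emp2, Maob and Pls1 on the opposite side.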

How the data were processed

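Per the labels, total RNA of whole lung and whole intestine was hybridised to 40 one-colour Affymetrix arrays. The authors deposited normalized intensity values on a linear scale (6.65 to 39901), and RMA, which corrects background, normalizes and summarises probes, is named without a version in the submitters' processing notes. No source used here states if lung and intestine arrays shared 1 normalization run. Log2 was taken here. Precision is limited by the 10 arrays per group. Detection calls were not made.

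Gene symbols came from the platform annotation: 20832 had 1 symbol (6 controls among them were left out), 436 had several and 9831 had none. limma 3.58.1 in R 4.3.3 (lmFit, eBayes; two-sided; tested on simulated data) fitted 4 group means to all 40 arrays and 20826 probe sets, with Benjamini-Hochberg adjustment over these. Calls needed an adjusted p under 0.05 and a log2 difference of at least 1. Of a gene's probe sets, the one brightest on average over the 40 arrays was used; 107 genes were called by another probe set only. The difference between ages was a contrast of the same fit.

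Named genes were the 12 largest called differences in each direction (brighter mean above the median of all values, no overlap of arrays, no shared-probe suffix, established symbol), up to 4 called members per list and direction, a set given whatever its value, cell type and organ markers, the 5 largest turns between ages and 5 family pairs. Sftpb, Sftpa1, Zeb2 and Cps1 were picked out after their values were seen. The members and lists were chosen with earlier results of these data known. Alternatives covered scaling, the scale offset, dim genes, probe sets, the fold threshold, the replicate block and the arrays with transcripts of other organs, the last chosen after seeing the data. Lists were described by counts and medians, with no list test. Promoter letters came from RefSeq (GRCr8); Sftpc has no entry in that table.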

Additional observations from a re-analysis of the deposited data

Results flagged for a closer look

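Single arrays stood far from the other 9 of their group in 13 of the 104 gene and group combinations examined at E16 (52 genes), where chance alone gives about 1 in 20. Intestine replicate 8 was the array in 5 of them, being the highest for Nkx2-1 (7.23), Irx1 (6.53), Aqp4 (5.98) and Myl7 (6.47) and the lowest for Nkx2-3 (7.07, log2 intensity). The pancreas list was also high on that array (7.73, against 6.30 to 6.71 on the 7 intestine arrays that did not stand apart). The same array had the highest lower quartile of the 20 E16 arrays (118 intensity units, against 97.2 to 110.5 on the other intestine arrays) and the lowest median correlation with its group (0.971). Lung replicate 7 was the highest lung array for Hoxa10 (5.83), Hoxd1 (5.27) and Elmod1 (4.80). The remaining arrays were intestine replicate 6 for Lum (12.61), intestine replicate 1 for Hoxa10 (10.09), lung replicate 2 for Cdh1 (9.24), lung replicate 9 for Hoxa5 (11.52) and lung replicate 6 for Mki67 (11.61). The part of other tissue and of the raised lower quartile in these values was not tested.

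For 28 of the 52 genes examined the lung minus intestine difference itself changed from E16 to E20 in the limma fit, against 17.6% of all genes. The 52 included the 5 genes chosen for the largest turns between ages, so the count is in part fixed by the choice. They also included the genes chosen for the largest differences at E16 and the family pairs called in opposite directions. A large E16 difference leaves more room for a called change than most genes have. The comparison with 17.6% therefore cannot show if these genes changed more often than others. The change, E20 minus E16 on the log2 scale, was toward lung for the epithelial genes Sftpc (3.55), Lamp3 (3.99) and Cldn18 (3.80), for the position and limb genes Hoxd10 (4.13), Hoxa10 (3.98), Hoxd1 (3.56) and Dlx1 (2.01), and for Mab21l2 (2.25), Mab21l1 (1.33), Aldh1a1 (3.43), S100g (2.19), Elmod1 (2.62) and Irx1 (1.04). It was also toward lung for the ligands Wnt4 (4.27) and Wnt5b (1.09) and for the turned genes Emp2 (5.99), Zfhx4 (4.58) and Cnr1 (4.26). It was toward intestine for the endoderm factors Cdx2 (-4.35) and Hnf4a (-4.05), for Epcam (-3.17) and Cdh1 (-2.57), for Maob (-4.87) and Pls1 (-4.86), for Bmp5 (-1.80), Mia (-1.71) and Aqp4 (-1.59), and for Mki67 (-1.24).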

How the results depend on the processing

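Counts of calls kept within 1.5 times of the 303 lung and 427 intestine genes except as follows. With bright genes only, 250 were higher in intestine. Under limma's treat test against 2-fold, 159 were higher in lung and 243 in intestine. Without the fold minimum the counts were 3358 and 5688. The number of lung genes opposite at E20 (17) became 28 after quantile normalization, 10 on log2(intensity + 50), 6 under treat and 27 without the 7 arrays, and 110 rather than 197 were the same under treat. Of the intestine genes, 122 were the same and 25 opposite at E20 on log2(intensity + 50), 97 were the same with bright genes only, and 100 were the same and 11 opposite under treat. The sign turned for Cdx1 (0.16 quantile, 0.065 centred), Shh (0.15, 0.069), Star (0.16, 0.052), Gkn2 (0.012 quantile), Lgi3 (0.36 as the mean of its probe sets), Nppa (-0.32) and Tnnt2 (-0.53), the last pair without the 7 arrays. The cause was not tested. Among the 151 named genes, 18 lost their call on log2(intensity + 50), 38 under treat, 5 after centring (Agr2, Cldn2, Krt19, Lgi3 and Ltbp1), 3 after quantile normalization, 6 as the mean of probe sets and 8 without the 7 arrays. Of the 730 calls, 673 were also called after quantile normalization, 679 after centring and 704 without the 7 arrays, an alternative chosen after seeing the data.

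Replicate numbers were not treated as pairs, because not every pair correlated above 0.1, although same-numbered arrays tended to deviate together: the correlation of same-numbered arrays ran from -0.047 to 0.70 (median 0.27, against -0.04 for other numbers) and was over 0.1 for 7 of 10, with 5 lung and 6 intestine arrays correlating best with their own number and 8 of 9 pairs with 1 sex-linked transcript showing the same one. With the replicate block, 303 genes were higher in lung and 427 in intestine. The block leaves the differences themselves unchanged, so equal counts do not show that pairing is without effect. Signal over background limits the dim side of a difference, because no detection calls were used, and array number limits the rest.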
